A study of Mus musculus with 12 samples.

Results

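The RNA levels of 10 genes of mouse CD8+ T cells were followed across a fatty acid treatment and a gene knockdown. The genes were chosen by name: the inhibitory receptors *Pdcd1*, *Lag3*, *Havcr2*, *Tigit*, *Ctla4* and *Cd160*, the costimulatory receptors *Tnfrsf9*, *Icos* and *Cd28*, and the transcription factor *Tox*. They are 10 of 54532 genes listed for each library, and 8 of the 10 passed the filter for testing (a mean of at least 1 FPKM, read fragments scaled to gene length and library size, over all libraries), as did 11550 genes in all. *Pdcd1* and *Havcr2* did not pass it.

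All 4 groups were primary mouse CD8+ T cells that were activated in culture and given an siRNA (genotype WT with siNTC and *Creb1* KD with si*Creb1* in the labels), and each group had 3 libraries. The siNTC group carried a non-targeting siRNA with DMSO, and the siNTC plus TVA group the same siRNA with TVA. The si*Creb1* and si*Creb1* plus TVA groups carried an siRNA against *Creb1*, which encodes the cAMP-responsive transcription factor CREB, with DMSO or TVA in the same way. TVA is trans-vaccenic acid, a fatty acid of ruminant milk and meat, and was used at 20 μM for 24 h. Strain, age and sex are not given in the labels, and the knockdown was transient and acted on cells that had already been activated. The comparisons ask how TVA changes expression when CREB is present or depleted, and how the knockdown changes it with and without TVA.

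T cells read antigen through the T cell receptor, and a second set of surface receptors sets how strongly that signal is passed on. CD28, ICOS and 4-1BB (encoded by *Tnfrsf9*) add to it, whereas CTLA-4, PD-1 (*Pdcd1*), LAG-3, TIM-3 (*Havcr2*), TIGIT and CD160 restrain it and are the targets, or candidate targets, of checkpoint blockade. Activation induces most of these receptors, so they mark both recent stimulation and, when several stay high together with the transcription factor TOX, the exhausted state of chronically stimulated CD8+ T cells. CTLA-4 and CD28 compete for the same ligands, CD80 and CD86, and TIGIT competes with the activating receptor CD226 for CD155.

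*Cd28*, *Ctla4* and *Icos* are neighbours on chromosome 1 of GRCm38, all on the plus strand, at 60716800 to 60773359, 60887000 to 60915832 and 60977927 to 61000320. *Pdcd1* lies on the minus strand of the same chromosome at 94038305 to 94052553. *Tigit* is on chromosome 16 at 43648867 to 43664146 (minus strand), *Tox* on chromosome 4 at 6686353 to 6991557 (minus strand), *Tnfrsf9* on chromosome 4 at 150914562 to 150946102 (plus strand), *Lag3* on chromosome 6 at 124904361 to 124911705 (minus strand), *Cd160* on chromosome 3 at 96798763 to 96829351 (minus strand) and *Havcr2* on chromosome 11 at 46454935 to 46481255 (plus strand). All 10 are protein coding. The genes between *Cd28* and *Icos* other than *Ctla4* were all low, at a mean of 1.76 FPKM or less. Of genes that overlap a member, *Camta1* on the strand opposite *Tnfrsf9* had the most reads, up to 346 in a library, and the sources used here do not say whether strand was used in counting.

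Promoter windows of 300 bases (250 before the annotated start and 50 after it) were found in RefSeq for GRCm38.p6 for 6 of the 10 genes, 8 windows in all. They were searched on both strands for the cAMP response element that CREB binds (TGACGTCA), for its core (TGACG or CGTCA, which the full element contains) and for the core bound by NFAT, a factor activated by T cell receptor signalling (GGAAA or TTTCC). No window held the full element, which 1.79% of the 32851 windows in the table hold. The core was in 1 window, the second of *Cd160* (20.8% of all windows hold it), and the NFAT core was in 6 of the 8 (61.3% of all windows). The AP-1 site TGANTCA, searched in the same way, was in 2 windows, that of *Havcr2* and the second of *Tnfrsf9* (7.81% of all windows). The windows of *Ctla4* and *Tigit* are shown because these genes passed the test in a comparison with the knockdown, and the second window of *Cd160* because it alone holds the CREB core. Capitals mark the CREB core and the NFAT core. The *Ctla4* window is chr1:60908775-60909074 (plus strand), the *Tigit* window chr16:43664135-43664434 (minus strand) and the *Cd160* window chr3:96814472-96814771 (minus strand).
*Ctla4*: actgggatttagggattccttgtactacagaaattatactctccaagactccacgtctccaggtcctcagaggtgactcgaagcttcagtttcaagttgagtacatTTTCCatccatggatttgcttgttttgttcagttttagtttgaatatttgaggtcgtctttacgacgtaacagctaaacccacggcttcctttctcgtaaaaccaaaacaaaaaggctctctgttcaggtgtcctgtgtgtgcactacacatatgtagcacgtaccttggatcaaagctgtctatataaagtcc
*Tigit*: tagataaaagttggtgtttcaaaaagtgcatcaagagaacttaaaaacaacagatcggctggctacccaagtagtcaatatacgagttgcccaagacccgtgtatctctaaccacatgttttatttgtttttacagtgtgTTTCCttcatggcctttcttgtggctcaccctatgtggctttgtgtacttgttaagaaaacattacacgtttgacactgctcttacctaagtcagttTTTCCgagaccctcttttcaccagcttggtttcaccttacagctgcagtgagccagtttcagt
*Cd160*: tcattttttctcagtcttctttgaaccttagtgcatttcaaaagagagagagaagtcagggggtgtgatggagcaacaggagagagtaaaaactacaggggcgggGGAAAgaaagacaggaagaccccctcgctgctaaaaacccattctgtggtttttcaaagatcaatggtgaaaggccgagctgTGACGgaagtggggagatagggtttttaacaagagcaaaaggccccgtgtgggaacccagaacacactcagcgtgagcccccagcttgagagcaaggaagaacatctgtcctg
The *Ctla4* window holds 1 NFAT core and no CREB core, and the *Tigit* window 2 NFAT cores and no CREB core. A match is a description of the letters in these windows. It shows no binding, and a window without a match leaves the rest of the gene unsearched. The start used for *Ctla4* lies inside the gene's listed span, and 1 of its 3 GENCODE transcripts begins there. The 1 GENCODE transcript of *Tigit* neither begins at the start used for its window nor holds all of the 50 bases after that start, and 1 of the 3 transcripts of *Cd160* begins at the start of the window shown.

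On the FPKM scale, which is per length and so allows genes to be set side by side, the 10 genes covered a wide range. *Ctla4* was the highest, with a mean of 41.6 FPKM over the 12 libraries (36.3 to 46.8), followed by *Cd28* at 21.4 FPKM (19.8 to 23.4). *Icos* (16.5 FPKM) and *Tnfrsf9* (16.1 FPKM) came next and could not be ordered, since *Icos* was above *Tnfrsf9* in 7 of the 12 libraries. *Cd160* followed at 11.8 FPKM. *Lag3* (4.39 FPKM) and *Tigit* (3.92 FPKM) were again not separated, *Lag3* being higher in 7 of 12 libraries. *Tox* had a mean of 2.38 FPKM and was below *Tigit* in each of the 12 libraries. *Pdcd1* (0.914 FPKM) and *Havcr2* (0.194 FPKM) were the lowest.

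**Figure D1:**
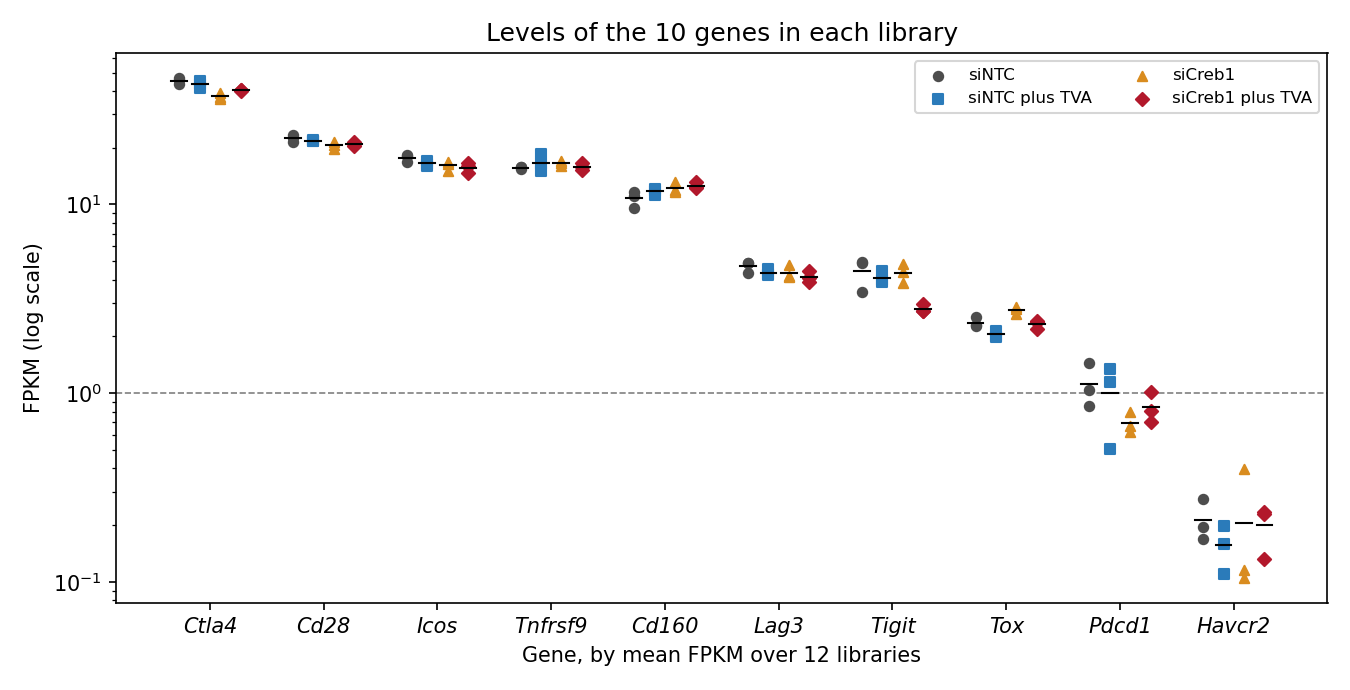
FPKM (log scale) of the 10 genes in each of the 12 libraries. Points are libraries, coloured and shaped by group, short black lines are group means, and the dashed line is 1 FPKM. The genes are ordered by their mean, from *Ctla4* at 41.6 FPKM to *Havcr2* at 0.194 FPKM, and most groups of a gene lie close together.

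Between 16660234 and 24602484 reads per library were recovered from the FPKM values. No library stood apart in correlation (mean of at least 0.986 with its own group, 0.984 to 0.986 with the other groups). Depth went with the siRNA: the 6 siNTC libraries had 16660234 to 20758033 reads and the 6 si*Creb1* libraries 20760297 to 24602484. FPKM is scaled to library size, and the part of depth in the knockdown comparisons was not tested. All 5 CD8 T cell markers (*Cd3e*, *Cd3d*, *Cd3g*, *Cd8a* and *Cd8b1*) were present, with a summed level of 1721 to 1842 FPKM. The CD4 and regulatory T cell markers *Cd4* and *Foxp3* summed to 3.34 to 4.66 FPKM, the natural killer cell markers (3 of 3 tested) to 4.69 to 6.72 FPKM and the myeloid markers to 4.87 to 8.72 FPKM. B cell markers summed to at most 2.69 FPKM, dendritic cell markers to 0.877 FPKM and erythroid markers to 0.424 FPKM, with *Hbb-bs* at 0 in all 12 libraries. *Creb1* was at 10.3 to 12.4 FPKM in the 6 siNTC libraries and at 1.17 to 1.81 FPKM in the 6 si*Creb1* libraries, as the labels have it. The knockdown left 13.4% of *Creb1* FPKM without TVA and 13.1% with TVA. The labels do not say whether the 3 libraries of a group came from separate mice or cultures, so p-values measure the spread between these libraries, which may be technical.

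Changes were tested on log2(FPKM + 1) with limma, and a gene was called where its p, adjusted by Benjamini-Hochberg across the 11550 genes, was under 0.05. For genes near 1 FPKM such log2 changes come out smaller than the change in FPKM itself, and 3 libraries against 3 cannot give an exact permutation p below 0.1. With knockdown in cells without TVA, 1 of the 8 tested members was called (*Ctla4*, lower), where 13.7% of all tested genes were. With knockdown in the presence of TVA, 1 of the 8 was called (*Tigit*, lower), against 10.1% of all tested genes. These counts are near the background and are no result about the 10 genes as a group. The groups did not overlap for 4 of the 8 members without TVA and for 5 of the 8 with TVA, where 31.5% and 31.8% of all tested genes did not.

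In siNTC cells 0 of the 8 members were called with TVA, where 7.38% of all tested genes were called. By limma 1 member (*Tox*) had an unadjusted p under 0.05, as did 20.9% of all tested genes, and limma-voom on the recovered reads also called 0. In si*Creb1* cells TVA again gave 0 called members, against 0.537% of all tested genes. There 3 members (*Tigit*, *Ctla4* and *Tox*) had an unadjusted p under 0.05 by limma, as did 9.58% of all tested genes, and limma-voom called 0. Without overlap between groups were 1 member in siNTC cells (23.9% of all tested genes) and 3 members in si*Creb1* cells (17.1%). The interaction, the difference of the TVA changes in si*Creb1* and siNTC cells (the first minus the second), was called for 0 members and 2.24% of all tested genes. *Ctla4* and *Tigit* had an unadjusted p under 0.05 for it by limma, as did 14.3% of all tested genes, and limma-voom called 0.

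The median log2 change of the 8 members was −0.07 for TVA in siNTC cells and −0.05 for TVA in si*Creb1* cells. It was −0.06 for the knockdown both without and with TVA. The medians over all tested genes lay between −0.012 and −0.0011 in these comparisons. The members' changes ranged from −0.49 (*Tigit*, TVA in si*Creb1* cells) to 0.17 (*Cd160*, knockdown without TVA).

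**Figure D2:**
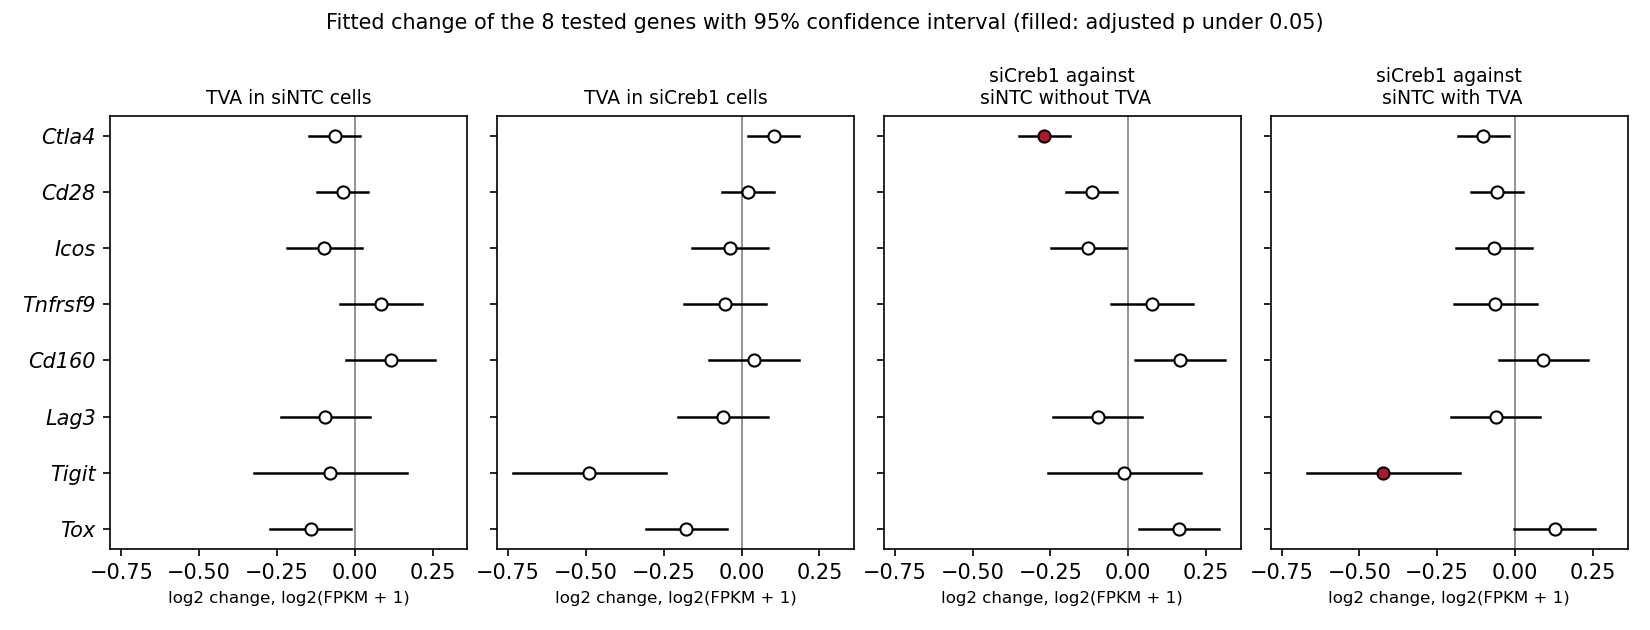
Fitted log2 change (x axis, on the log2(FPKM + 1) scale) of the 8 tested genes in 4 comparisons. Circles are the fitted change, lines the 95% confidence interval, and filled circles have an adjusted p under 0.05. Only *Ctla4* with knockdown without TVA (−0.27) and *Tigit* with knockdown in the presence of TVA (−0.42) are filled.

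*Ctla4*, which encodes the receptor that outcompetes CD28 for CD80 and CD86, fell with *Creb1* knockdown in cells without TVA. Its level was 43.6, 46.8 and 45.6 FPKM in siNTC libraries and 37.0, 36.3 and 38.9 FPKM in si*Creb1* libraries. With TVA it was 41.6, 43.3 and 45.1 FPKM in siNTC libraries and 40.5, 40.1 and 40.2 FPKM in si*Creb1* libraries. The si*Creb1* libraries without TVA were the lowest of the 12, and they overlapped with no other group. The knockdown without TVA left 82.5% of the siNTC mean, a log2 change of −0.27 (standard error 0.04, 95% confidence interval −0.35 to −0.19, adjusted p = 0.00138). The call was kept in all 21 alternatives, with log2 changes between −0.30 and −0.23 and adjusted p between 0.000162 and 0.0186.

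With TVA present, the same knockdown left 93.0% of *Ctla4*, a log2 change of −0.10 (95% confidence interval −0.18 to −0.02, adjusted p = 0.109). The si*Creb1* plus TVA libraries were still all below the siNTC plus TVA libraries. TVA itself gave 0.10 in si*Creb1* cells (adjusted p = 0.385), where its libraries lay wholly above those without TVA, and −0.06 in siNTC cells (adjusted p = 0.367), where they overlapped. The interaction was 0.17 (95% confidence interval 0.05 to 0.28, adjusted p = 0.151), so the 2 knockdown effects were not shown to differ. In bulk RNA fewer cells of a type and less RNA per cell cannot be told apart. The markers of CD8 T cells, as a sum, were at 1824 to 1842 FPKM in siNTC and 1721 to 1746 FPKM in si*Creb1* libraries, and of the 5, *Cd8a* was called higher (0.09) and *Cd8b1*, *Cd3d* and *Cd3g* lower (−0.16, −0.15 and −0.13). *Foxp3*, the defining factor of regulatory T cells, in which CTLA-4 is abundant, was at 1.87 to 2.91 FPKM in siNTC and 2.43 to 2.68 FPKM in si*Creb1* libraries. *Cd4* was lower without overlap, at 1.47 to 1.75 FPKM in siNTC and 0.921 to 1.23 FPKM in si*Creb1* libraries. Its log2 change was −0.30 (limma adjusted p = 0.0932), not past the threshold. The part of cell makeup in the change of *Ctla4* was not tested.

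*Tigit*, a receptor that binds CD155 on tumour and antigen-presenting cells, was lowest where the knockdown and TVA met. It was at 3.43, 4.88 and 4.99 FPKM in siNTC libraries and at 4.42, 3.99 and 3.91 FPKM in siNTC plus TVA libraries. In si*Creb1* libraries it was at 4.84, 4.38 and 3.84 FPKM, and in si*Creb1* plus TVA libraries at 2.72, 2.74 and 2.96 FPKM. The si*Creb1* plus TVA libraries lay below all 9 others, while the other 3 groups overlapped each other. These levels rest on few reads, 60 to 63 per library in si*Creb1* plus TVA and 61 to 95 in the others.

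Among cells with TVA, the knockdown left 68.4% of *Tigit*, a log2 change of −0.42 (standard error 0.11, 95% confidence interval −0.67 to −0.18, adjusted p = 0.0371). This call was lost in 11 of 20 alternatives, limma-voom on the recovered reads among them (adjusted p = 0.119), and the adjusted p ranged from 0.00753 to 0.119. Leaving out any 1 library of siNTC plus TVA or si*Creb1* plus TVA, or replicate 2 of si*Creb1*, gave an adjusted p between 0.0520 and 0.108. Without TVA the same knockdown gave −0.01 (95% confidence interval −0.26 to 0.23), a value whose sign turned with the processing. TVA in si*Creb1* cells left 64.4% of *Tigit* (log2 change −0.49, 95% confidence interval −0.73 to −0.24) with an adjusted p of 0.111, and in siNTC cells it gave −0.08 (95% confidence interval −0.32 to 0.17). The first of these passed the threshold without replicate 1 of siNTC, the lowest library of its group (adjusted p = 0.0190). The interaction was −0.41 (95% confidence interval −0.76 to −0.06, adjusted p = 0.246), so the knockdown effects with and without TVA were not shown to differ.

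In the si*Creb1* plus TVA libraries the myeloid markers summed to 7.34 to 8.72 FPKM, against 4.87 to 7.13 FPKM in the other 9. The myeloid gene *Lyz2* was called higher with knockdown in the presence of TVA (log2 change 0.40, adjusted p = 0.0478). The other 3 of the 4 myeloid markers were below the filter. The natural killer markers summed to 5.86 to 6.16 FPKM, against 5.40 to 6.72 FPKM in siNTC plus TVA libraries and 5.13 to 5.84 FPKM in si*Creb1* libraries, which lay wholly below. One of them, *Ncr1*, was at 1.71 to 1.87 FPKM, above siNTC plus TVA (1.16 to 1.33 FPKM) and si*Creb1* libraries (0.969 to 1.13 FPKM). Its log2 changes were 0.33 for the knockdown with TVA (limma adjusted p = 0.0768) and 0.44 for TVA in si*Creb1* cells (limma adjusted p = 0.159). The others did not rise alike: in the same order *Klra8* gave −0.11 and −0.27, and *Klrb1c* −0.11 and 0.08, none called. The B cell markers summed to 1.72 to 2.69 FPKM, without overlap with siNTC plus TVA libraries (1.62 to 1.70 FPKM), and *Cd79a* gave 0.42 for the knockdown with TVA (adjusted p = 0.142). *Foxp3* was at 2.44 to 2.92 FPKM, against 2.29 to 2.99 FPKM in siNTC plus TVA libraries. *Cd4* was at 0.943 to 1.27 FPKM, against 1.05 to 1.58 FPKM in siNTC plus TVA libraries, with overlap. The part of these markers in the level of *Tigit* was not tested.

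**Figure D3:**
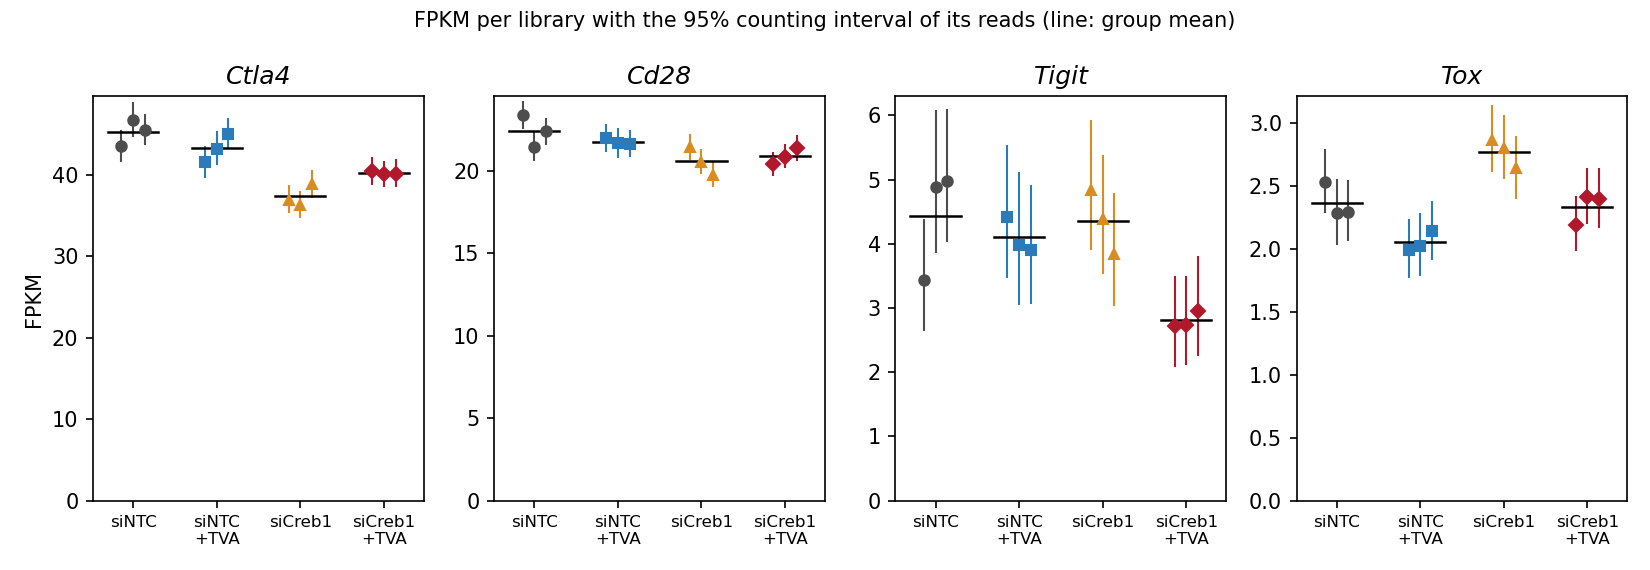
FPKM of *Ctla4*, *Cd28*, *Tigit* and *Tox* in each library by group, on axes that start at 0. Points are libraries, bars the exact 95% Poisson interval of the library's reads (counting error only), and lines group means. *Ctla4* is lowest in the si*Creb1* libraries, *Tigit* is lowest in the si*Creb1* plus TVA libraries, and *Tox* lies lower with TVA in both backgrounds.

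*Lag3*, whose product binds MHC class II and restrains T cells, stayed within a narrow range. It was at 4.89, 4.36 and 4.92 FPKM in siNTC, 4.28, 4.56 and 4.22 FPKM in siNTC plus TVA, and 4.13, 4.16 and 4.76 FPKM in si*Creb1* libraries. The si*Creb1* plus TVA libraries were at 3.89, 4.06 and 4.44 FPKM. All 4 groups overlapped. The log2 changes of the 4 comparisons of 2 groups lay between −0.10 and −0.06, none was called, and the 95% confidence intervals stayed within −0.24 and 0.08.

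*Cd160* encodes a receptor that binds HVEM and is found on cytotoxic T cells and natural killer cells. It was at 11.6, 11.1 and 9.62 FPKM in siNTC and 12.1, 11.3 and 11.8 FPKM in siNTC plus TVA libraries. Libraries of si*Creb1* were at 11.9, 11.6 and 13.1 FPKM, and those of si*Creb1* plus TVA at 12.4, 13.1 and 12.2 FPKM. The single lowest library was replicate 3 of siNTC, and the si*Creb1* plus TVA libraries were all above the siNTC plus TVA libraries. The knockdown without TVA gave a log2 change of 0.17 (95% confidence interval 0.02 to 0.31, adjusted p = 0.122) and with TVA 0.09 (95% confidence interval −0.05 to 0.23, adjusted p = 0.408), neither past the threshold. TVA gave 0.11 in siNTC cells and 0.04 in si*Creb1* cells, with adjusted p of 0.354 and 0.904. The natural killer markers summed to 4.69 to 5.62 FPKM in siNTC and 5.13 to 5.84 FPKM in si*Creb1* libraries. They did not move alike with that knockdown: *Klra8* gave 0.45, *Klrb1c* 0.01 and *Ncr1* −0.21, none called. The part of these markers in the level of *Cd160* was not tested. Without replicate 3 of siNTC the value for the knockdown without TVA was 0.09 and that for TVA in siNTC cells 0.04.

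*Pdcd1*, the gene of PD-1, was near the limit of what these libraries measure. It was at 0.856, 1.04 and 1.45 FPKM in siNTC, 1.15, 1.34 and 0.509 FPKM in siNTC plus TVA, and 0.669, 0.626 and 0.797 FPKM in si*Creb1* libraries. The si*Creb1* plus TVA libraries were at 1.01, 0.808 and 0.704 FPKM, and each library had 20 to 58 reads of it. The si*Creb1* libraries lay below the siNTC libraries, and all other groups compared overlapped. In a fit of all genes above 0 the knockdown without TVA gave a log2 change of −0.31 (95% confidence interval −0.69 to 0.07, adjusted p = 0.502), an interval that includes no change. A group mean rested on 88 to 126 reads in all, and TVA gave −0.10 in siNTC cells (95% confidence interval −0.48 to 0.28).

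*Havcr2*, the gene of TIM-3, was lower still, from 0.105 to 0.399 FPKM on 5 to 24 reads per library. Its group means were 0.213 FPKM in siNTC, 0.156 FPKM in siNTC plus TVA and 0.207 FPKM in si*Creb1* cells, and 0.199 FPKM where knockdown and TVA were combined. All groups compared overlapped, and the highest library, a si*Creb1* library at 0.399 FPKM (24 reads), stood well above the other libraries of its group. No difference was detectable at this depth.

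**Figure D4:**
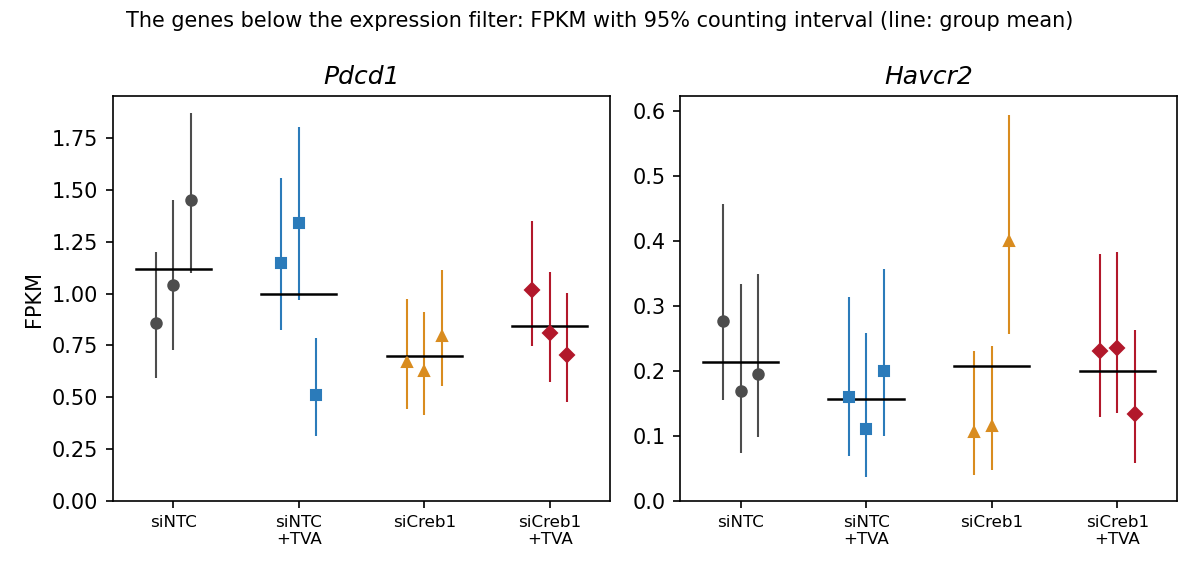
FPKM of *Pdcd1* and *Havcr2* in each library by group, on axes that start at 0. Points are libraries, bars the exact 95% Poisson interval of the library's reads (counting error only), and lines group means. Most intervals of single libraries overlap between groups.

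Of the costimulatory receptors, *Cd28* supplies the main second signal for T cell activation. It was at 23.4, 21.4 and 22.4 FPKM in siNTC and 22.0, 21.7 and 21.6 FPKM in siNTC plus TVA libraries. Libraries of si*Creb1* were at 21.4, 20.5 and 19.8 FPKM, and those of si*Creb1* plus TVA at 20.4, 20.9 and 21.4 FPKM. Each si*Creb1* group lay below the siNTC group with the same treatment, without TVA by a very small margin. The knockdown without TVA left 91.8% of the mean (log2 change −0.12, 95% confidence interval −0.20 to −0.04, adjusted p = 0.0622) and with TVA 95.9% (−0.06, 95% confidence interval −0.14 to 0.03, adjusted p = 0.368). The first passed the threshold when replicate 2 of siNTC (adjusted p = 0.0380) or replicate 1 of si*Creb1* (adjusted p = 0.0476) was left out. Over all alternatives it ranged from −0.15 to −0.07, with an adjusted p of up to 0.374. TVA gave −0.04 in siNTC cells and 0.02 in si*Creb1* cells, with 95% confidence intervals of −0.12 to 0.04 and −0.06 to 0.10.

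*Icos* encodes an inducible relative of CD28. Its level was 18.3, 16.8 and 18.1 FPKM in siNTC, 16.5, 16.0 and 17.0 FPKM in siNTC plus TVA, and 15.1, 16.9 and 16.4 FPKM in si*Creb1* libraries. In si*Creb1* plus TVA libraries it was 16.5, 16.0 and 14.6 FPKM. The siNTC libraries were highest on average, and every pair of groups compared overlapped. The knockdown without TVA gave −0.13 (95% confidence interval −0.25 to −0.01, adjusted p = 0.152) and with TVA −0.07 (95% confidence interval −0.19 to 0.05). TVA gave −0.10 in siNTC cells and −0.04 in si*Creb1* cells, neither called.

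*Tnfrsf9* encodes 4-1BB, a receptor of the tumour necrosis factor receptor family that sustains activated CD8+ T cells. It was at 15.7, 15.7 and 15.3 FPKM in siNTC, 16.5, 18.5 and 15.0 FPKM in siNTC plus TVA, and 16.0, 16.6 and 16.9 FPKM in si*Creb1* libraries. In si*Creb1* plus TVA libraries it was at 16.5, 15.3 and 15.8 FPKM. The si*Creb1* libraries all lay above the siNTC libraries, by a narrow margin, and the siNTC plus TVA libraries spanned the widest range. The log2 changes lay between −0.06 and 0.08, none was called, and the 95% confidence intervals stayed within −0.20 and 0.22.

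*Tox* encodes a DNA-binding factor needed for the exhausted state. It was at 2.53, 2.28 and 2.29 FPKM in siNTC and 1.99, 2.02 and 2.14 FPKM in siNTC plus TVA libraries. Libraries of si*Creb1* were at 2.87, 2.80 and 2.64 FPKM, and those of si*Creb1* plus TVA at 2.19, 2.41 and 2.40 FPKM. The TVA libraries lay below those without TVA on both siRNA backgrounds, and the si*Creb1* libraries above the siNTC libraries with the same treatment, with no overlap in any of the 4 comparisons. TVA left 86.6% of the mean in siNTC cells (log2 change −0.14, 95% confidence interval −0.27 to −0.01, adjusted p = 0.192) and 84.3% in si*Creb1* cells (−0.18, 95% confidence interval −0.31 to −0.05, adjusted p = 0.334). The knockdown gave 0.16 without TVA (95% confidence interval 0.03 to 0.29, adjusted p = 0.0936) and 0.13 with TVA (95% confidence interval −0.0017 to 0.26, adjusted p = 0.197). None of the 4 was called, though limma-voom on the recovered reads (adjusted p = 0.0470) and a fit without the mean-variance trend (adjusted p = 0.0362) called the knockdown without TVA. For that comparison the alternatives ranged from 0.12 to 0.24, with an adjusted p of up to 0.232. The interaction was −0.04 (95% confidence interval −0.22 to 0.15).

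Because the values of *Tox* with TVA, and of *Tox* and *Cd28* with knockdown, had the same sign on both backgrounds or treatments, averages over the siRNAs and over the treatments were added after seeing the data. They are descriptions of a pattern already noticed and no independent support for it. Averaged over siNTC and si*Creb1* cells, TVA was called for 0 of the 8 members, against 5.55% of all tested genes, with *Tox* at −0.16 (adjusted p = 0.0504) and *Tigit* at −0.28 (adjusted p = 0.0674, or 0.00555 without replicate 1 of siNTC). Both had an unadjusted p under 0.05 by limma, as did 18.3% of all tested genes, and limma-voom called 1, *Tox*. Averaged over cells without and with TVA, the knockdown was called for 3 of the 8 members, where 20.5% of all tested genes were: *Ctla4* (−0.19, adjusted p = 0.000913), *Cd28* (−0.09, adjusted p = 0.0395) and *Tox* (0.14, adjusted p = 0.0314). *Cd160* gave 0.13 (adjusted p = 0.0713) and was called with TPM, with limma-voom and without replicate 1 of siNTC (adjusted p of 0.0275, 0.0264 and 0.0399). The calls of *Cd28* and *Tox* were lost in 15 of 20 and 11 of 19 alternatives, that of *Ctla4* in none of 20. Over all alternatives the adjusted p of *Cd28* ranged from 0.0217 to 0.447 (log2 change −0.10 to −0.04). That of *Tox* ranged from 0.00953 to 0.104. Leaving out single libraries gave *Cd28* an adjusted p of 0.0217 to 0.0868 (kept only without replicate 3 of si*Creb1* plus TVA, replicate 1 of si*Creb1* or replicate 2 of siNTC) and *Tox* one of 0.0277 to 0.0718 (kept only without replicate 1 of si*Creb1* plus TVA, replicate 3 of si*Creb1*, replicate 3 of siNTC plus TVA or replicate 1 of siNTC).

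Related genes were read from 5 lists, of which 75 genes were tested: 11 other inhibitory receptors, 13 other costimulatory receptors, 9 ligands, 20 transcription factors and 22 signalling adaptors and enzymes. The lists were written with earlier results of these data known. With knockdown in cells without TVA, 3 of the 75 were called higher and 10 lower, 17.3% of them beside 13.7% of all tested genes. With TVA present 6 were called higher and 2 lower (10.7% beside 10.1%). TVA in siNTC cells gave 1 higher and 8 lower (12% beside 7.38%), and TVA in si*Creb1* cells gave 0 called by limma, beside 0.537% of all tested genes (11 had an unadjusted p under 0.05, and limma-voom called 2). Because of how the lists were written, nothing about a list as a whole is read from these shares or from those of single lists. Of these and the 2 interaction calls given below, 32 in all, 9 were kept in every alternative tried: *Dgka* with TVA in siNTC cells, *Vsir*, *Cd7*, *Sla2*, *Lilrb4a* and *Ikzf2* with knockdown without TVA, and *Ikzf2*, *Dgka* and *Traf1* with knockdown in the presence of TVA.

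Of the other inhibitory receptors, *Lilrb4a* and *Btla* rose with knockdown both without TVA (log2 changes 0.49 and 0.19) and with TVA (0.46 and 0.17). The call of *Btla* was lost in 5 of 21 alternatives without TVA and in 12 of 21 with TVA. LILRB4 is a receptor with inhibitory motifs in its tail, and BTLA shares the ligand HVEM with CD160. *Lilrb4a* was at 2.06 ± 0.109 FPKM (SD, n = 3) in siNTC cells against 3.30 ± 0.351 FPKM (SD, n = 3) with the knockdown, and *Btla* at 22.0 ± 0.995 FPKM (SD, n = 3) and 25.3 ± 1.16 FPKM (SD, n = 3). *Vsir*, which encodes the checkpoint protein VISTA, fell with knockdown (−0.24 without TVA and −0.14 with TVA). It also fell with TVA in siNTC cells (−0.12), a call lost in 10 of 21 alternatives. It was at 80.8 ± 2.42 FPKM (SD, n = 3) in siNTC, 74.5 ± 0.884 FPKM in siNTC plus TVA and 68.3 ± 1.52 FPKM in si*Creb1* cells, and with both the knockdown and TVA at 67.7 ± 1.57 FPKM. The other 8 tested inhibitory receptors, *Cd5*, *Cd6*, *Cd96* and *Lair1* among them, were not called in any of these comparisons. Inhibitory receptors were thus called in both directions with knockdown, with *Ctla4* and *Vsir* lower and *Lilrb4a* and *Btla* higher without TVA.

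Among costimulatory receptors, *Cd81* fell with knockdown without TVA (−0.31) and with TVA (−0.33), and *Cd7* fell without TVA (−0.21). The calls of *Cd81* were lost in 8 of 20 alternatives without TVA and in 7 of 20 with TVA. *Tnfrsf4*, which encodes OX40, rose with knockdown in the presence of TVA (0.47, adjusted p = 0.0420), a call lost in 13 of 21 alternatives. *Cd27* fell with TVA in siNTC cells (−0.10), a call lost in 12 of 21 alternatives. For *Cd7* the interaction was called (0.23, adjusted p = 0.0494, lost in 15 of 20 alternatives), with 101.8 FPKM in si*Creb1* plus TVA and 90.0 FPKM in si*Creb1* cells, and 100.4 FPKM in siNTC plus TVA and 104.1 FPKM in siNTC cells.

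Of the ligands, *Hmgb1* (a ligand of TIM-3 when released) rose with TVA in siNTC cells (0.19), and no other of the 9 was called. The call of *Hmgb1* was lost in 7 of 21 alternatives. Of the transcription factors, *Ikzf2*, the gene of Helios, rose with knockdown without TVA (0.26) and with TVA (0.26). *Tcf7*, the gene of TCF-1, which marks memory-like and progenitor cells, fell with TVA in siNTC cells (−0.11) and with knockdown without TVA (−0.11), and *Id2* fell with knockdown without TVA (−0.13). Each call of *Tcf7* was lost in 3 of 21 alternatives, and that of *Id2* in 2 of 21. *Tox4*, the relative of *Tox* that was tested, and the tested Nr4a and Nfatc genes (3 each) were not called in any comparison.

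Of the 22 signalling genes, 5 (22.7%) fell with TVA in siNTC cells, where 2.88% of all tested genes were called lower. As the list was written with earlier results of these data known, nothing is read from this share or the next. Among the 5 were *Dgka* (−0.16), *Ptpn22* (−0.11), *Prkcq* (−0.11) and *Pik3cd* (−0.10). The call of *Prkcq* was lost in 16 of 21 alternatives, and those of *Ptpn22* and *Pik3cd* in 3 of 21 each. With knockdown without TVA 5 fell, where 7.21% of all tested genes were called lower. Among these were *Sla2* (−0.20), *Prkcq* (−0.14), *Dgkz* (−0.12) and *Lck* (−0.10), which act close to the T cell receptor. The calls of *Lck* and *Dgkz* were lost in 5 and 6 of 21 alternatives, TPM and quantile normalization among both. That of *Prkcq* was lost in 1 of 21 (TPM). The value of *Lck* came as near to 0 as −0.02 (adjusted p up to 0.619). With knockdown in the presence of TVA, *Dgka* (0.20) and *Traf1* (0.17), which encodes an adaptor that takes part in 4-1BB signalling, rose. *Dgka* encodes a diacylglycerol kinase that damps T cell receptor signalling, and its interaction was called (0.21, adjusted p = 0.00277). It was at 189.3 ± 2.31 FPKM (SD, n = 3) in siNTC, 169.8 ± 2.25 FPKM in siNTC plus TVA and 188.0 ± 1.69 FPKM in si*Creb1* cells, and with both the knockdown and TVA at 195.1 ± 1.46 FPKM.

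**Figure D5:**
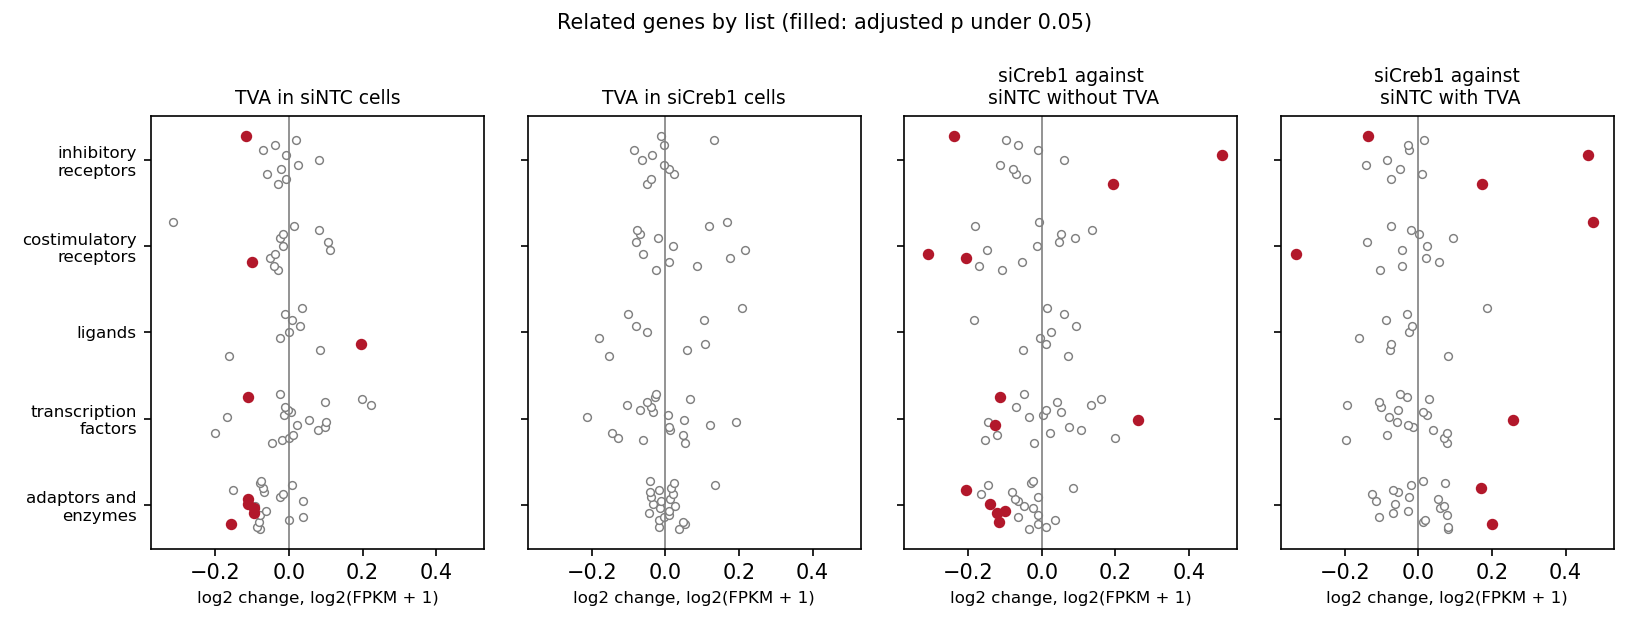
Log2 change (x axis, on the log2(FPKM + 1) scale) of the 75 tested related genes, in rows by list, in 4 comparisons. Each circle is a gene and filled circles have an adjusted p under 0.05. Filled circles lie on both sides of 0 for the knockdown, mostly below 0 for TVA in siNTC cells, and are absent for TVA in si*Creb1* cells.

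For the 2 members called in a comparison, the tested genes with the most similar pattern over the 12 libraries were found by Pearson correlation of log2(FPKM + 1), as a description. For *Ctla4* they were *AI467606* (r = 0.949), *Sh3bgrl3* (r = 0.943) and *Fbxl14*, which encodes an F-box protein (r = 0.941). For *Tigit* they were *Tmed9*, which encodes a cargo receptor of the early secretory pathway (r = 0.927), *Rgs16*, a regulator of G protein signalling (r = 0.907), and *Selenow*, a selenoprotein gene (r = 0.897). These libraries share 4 group means, so the likeness holds group differences and spread together.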

How the data were processed

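RNA of 12 libraries (4 groups of 3, replicate numbers from the labels) was measured. The authors deposited FPKM values of 54532 genes per library, reads scaled by gene length and library size, with positions on GRCm38 (mm10 in the labels). The aligner, counting program, annotation release and use of strand are not given in the sources used here. FPKM times gene length was a whole multiple of 1 step per library for at least 99.9952% of genes above 0 (tolerance 0.1 read), which gave back 16660234 to 24602484 reads per library. Intervals on these reads cover counting error only. The variance between replicates was 3.54 to 5.29 times that of counting alone (12 pairs).

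Log2(FPKM + 1) values of the 11550 genes with a mean of at least 1 FPKM entered limma 3.58.1 (eBayes with trend, two-sided) in R 4.3.3, in 1 fit with a coefficient per group and Benjamini-Hochberg adjustment over all tested genes. There were 5 comparisons and 2 averages added after seeing the data. The members and lists were chosen with earlier results of these data known. Named genes are the members, *Creb1*, the markers, list genes called in a comparison (at most 6 per list and comparison) and the 3 genes most correlated with each called member. A list gene is counted but not reported by name here. A few list genes that were not called were also named after their values were seen. Alternatives tried were all genes above 0, a pseudocount of 0.1, a minimum of 5 FPKM, a replicate block, TPM computed from FPKM, quantile normalization, no trend, the compared libraries alone, limma-voom on recovered reads, and leaving out each library. Promoter windows came from RefSeq (GRCm38.p6). Files were read with the data.table package (1.17.8) and figures drawn with matplotlib 3.10.9 (Python 3.11.15).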

Additional observations from a re-analysis of the deposited data

Results flagged for a closer look

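The test of a difference between the TVA changes in si*Creb1* and siNTC cells passed the threshold for 2 of the related genes and for none of the 8 tested members. For *Dgka*, a diacylglycerol kinase gene, the interaction was 0.21 on the log2(FPKM + 1) scale (limma adjusted p = 0.00277), and the call was lost in 1 of 20 alternatives. For *Cd7*, a costimulatory receptor gene, it was 0.23 (limma adjusted p = 0.0494), and the call was lost in 15 of 20 alternatives.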

How the results depend on the processing

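The fall of *Ctla4* with knockdown without TVA kept its call in all 21 alternatives. That of *Tigit* with knockdown in the presence of TVA did not, and the number of members called there went from 1 to 0 with all genes above 0, a minimum of 5 FPKM (where *Tigit* is not tested), the replicate block, TPM and limma-voom, and to 0 to 1 when single libraries were left out. For knockdown without TVA the number went from 1 to 2 (*Ctla4* and *Tox*) with limma-voom and without the trend, and to 1 to 2 when single libraries were left out (*Cd28* joined without replicate 2 of siNTC or replicate 1 of si*Creb1*). For TVA in si*Creb1* cells it was 0 to 1 when single libraries were left out (*Tigit*, without replicate 1 of siNTC). For TVA averaged over both backgrounds it went from 0 to 1 (*Tox*) with a pseudocount of 0.1, quantile normalization, no trend and limma-voom, and was 0 to 1 when single libraries were left out. For the averaged knockdown it went from 3 to 1 (*Ctla4*) with all genes above 0, quantile normalization and the replicate block, to 2 with a minimum of 5 FPKM (*Ctla4* and *Cd28*, with *Tox* not tested) and without the trend (*Ctla4* and *Tox*), stayed at 3 with TPM and limma-voom with *Cd160* in place of *Cd28*, and was 1 to 4 when single libraries were left out. The signs that turned were of values near 0. *Tigit* with knockdown without TVA was 0.031 with TPM, 0.0097 with limma-voom, and −0.15 to 0.064 when single libraries were left out. In the same way *Cd28* and *Icos* with TVA in si*Creb1* cells ranged from −0.0066 to 0.049 and from −0.083 to 0.011, the interaction of *Lag3* from −0.0079 to 0.090, and *Tnfrsf9* with knockdown in the presence of TVA from −0.13 to 0.0099.

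Over all genes, the numbers called that differed by more than 1.5 times reached, at their lowest and highest, 368 (compared libraries alone) against 852 for TVA in siNTC cells, and 30 (without replicate 2 of si*Creb1*) and 155 (limma-voom) against 62 for TVA in si*Creb1* cells, with 34 under the replicate block. They reached 817 (compared libraries alone) against 1586 for the knockdown without TVA, 599 (without replicate 1 of si*Creb1* plus TVA) against 1172 with TVA, 152 (TPM) and 446 (limma-voom) against 259 for the interaction, and 385 (all genes above 0) against 641 for averaged TVA. Same-numbered libraries deviated together with correlations of −0.0593 to 0.0595 only, so the numbers do not pair the libraries, and the replicate block changed no member's call other than those of *Tigit*, *Cd28* and *Tox* above. The causes of these changes were not tested. Depth limits *Pdcd1* (20 to 58 reads per library), *Havcr2* (5 to 24) and *Tigit* (60 to 95).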
